A study of Mus musculus with 12 samples.

Results

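Alveolar type 1 cells are the thin epithelial cells that form most of the gas-exchange surface of the lung, and 10 of the genes that mark them are described here: Ager, Hopx, Aqp5, Pdpn, Cav1, Rtkn2, Akap5, Clic3, Clic5 and Emp2. They were chosen by name as markers of that cell type, with earlier results of these data known, and all 10 were found among the 54146 genes of the expression table. RNA was measured in 12 libraries labelled as mouse mammary tumour cells, all of the line D2A1 carrying green fluorescent protein fused to histone H2B, sorted from the lungs of female mice 6 to 8 weeks old that had received the cells through the tail vein. Before injection the cells were stained with CellVue Claret, a membrane dye that fades as cells divide. GFP-positive cells that kept the dye were sorted as dormant, and GFP-positive cells that had lost it as growing. Cells of either state came from WT hosts or from KO hosts, in which Tgfbr2, a receptor of transforming growth factor beta, was removed from floxed alleles by Cre under the Lysozyme 2 promoter. This gave 3 libraries in each of 4 groups (growing WT, dormant WT, growing KO and dormant KO), every library made from an aliquot of 50 sorted cells. The methods put the sort at day 12 after injection and the account of the results at day 14. The study describes this deletion as specific to myeloid cells. The Lysozyme 2 promoter drives Cre in myeloid cells and is also known to be active in part of the alveolar type 2 cells. The host deletion thus need not have been limited to myeloid cells, which was not tested here. WT hosts are given as WT in the labels and as floxed controls elsewhere in the study. All WT libraries carried the batch number 1 in their names and all KO libraries the batch number 2. Host and batch therefore cannot be told apart in a comparison of hosts, whereas dormant and growing libraries of 1 host share a batch.

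Alveolar type 1 cells flatten against the capillary endothelium over a shared basement membrane, carry many caveolae and let water and ions pass. They arise from, and are renewed by, alveolar type 2 cells, the cuboidal cells that make surfactant. Of the 10 genes, Ager encodes the receptor for advanced glycation end products (RAGE), which is by far more abundant in lung than in most organs, and Pdpn encodes podoplanin, a sialoglycoprotein of the apical membrane that lymphatic endothelium and mesothelium also carry. Emp2 is a tetraspan protein that shapes membranes and caveolae. Aqp5 is a water channel, and Clic3 and Clic5 belong to the chloride intracellular channel family. Cav1 is the main coat protein of caveolae and is also abundant in endothelium and in many cultured cells. Akap5 anchors protein kinase A, Rtkn2 belongs to the rhotekin family, and Hopx is a small homeodomain protein that does not bind DNA by itself.

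Sequence around the start sites is shown for Ager, Pdpn and Hopx, which were among the genes that differed most between dormant KO libraries and the others. Each run is the RefSeq window of 250 bases before to 50 bases after an annotated start, on build GRCm38.p6, read 5′ to 3′ on the strand of the gene. The windows lie at chr17:34597600-34597899 (plus strand, Ager), chr4:143299515-143299814 (minus strand, Pdpn) and chr5:77095218-77095517 (minus strand, the second of the Hopx starts). Capitals mark matches to CACTNNAG, a core bound by the lung factor NKX2-1, on either strand.
Ager: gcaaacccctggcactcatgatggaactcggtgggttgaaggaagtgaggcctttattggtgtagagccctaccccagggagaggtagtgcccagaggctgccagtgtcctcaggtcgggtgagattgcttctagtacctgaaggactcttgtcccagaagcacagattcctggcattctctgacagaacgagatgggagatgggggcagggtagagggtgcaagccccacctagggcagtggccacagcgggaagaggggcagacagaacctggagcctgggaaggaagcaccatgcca
Pdpn: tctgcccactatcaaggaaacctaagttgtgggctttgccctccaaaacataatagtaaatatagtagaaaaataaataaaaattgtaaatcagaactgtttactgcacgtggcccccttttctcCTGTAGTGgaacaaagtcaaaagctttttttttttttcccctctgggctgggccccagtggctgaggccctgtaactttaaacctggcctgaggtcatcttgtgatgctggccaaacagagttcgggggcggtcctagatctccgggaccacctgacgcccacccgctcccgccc
Hopx: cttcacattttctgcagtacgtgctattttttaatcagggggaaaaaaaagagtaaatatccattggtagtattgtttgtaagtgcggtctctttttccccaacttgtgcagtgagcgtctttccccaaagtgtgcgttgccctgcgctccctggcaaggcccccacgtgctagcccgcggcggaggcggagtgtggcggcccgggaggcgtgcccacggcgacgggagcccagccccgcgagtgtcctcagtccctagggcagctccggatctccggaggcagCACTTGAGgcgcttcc
Motifs were searched in 10 windows of 8 of the 10 genes, not of Clic3 and Rtkn2. CACTNNAG, searched on both strands, occurred in 3 of the 10 windows, against 16.0% of the 32851 windows of this length. These were the windows of Pdpn and Akap5 and the Hopx window shown. The other Hopx window held no match. The first letter of the match lay at position -125 from the start for Pdpn, -227 for Akap5 and 34 for the Hopx window shown. CCCCACCC, a core bound by Krüppel-like factors, occurred in none of the 10, against 9.99% of all windows, and CATTCC, a core bound by TEAD factors, in none, against 14.7%. Both were searched on both strands. Such matches describe sequence and show no binding.

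On GRCm38 with the GENCODE M21 annotation, the genes lie on 9 chromosomes: Clic3 on chromosome 2 (25456838 to 25458776), Pdpn on 4 (143267431 to 143299564), Hopx on 5 (77086988 to 77115121), Cav1 on 6 (17306335 to 17341452), Rtkn2 on 10 (67979570 to 68059740), Akap5 on 12 (76324891 to 76334153), Aqp5 on 15 (99590782 to 99594829), Emp2 on 16 (10281749 to 10313968), and Ager (34597862 to 34600936) and Clic5 (44188584 to 44280172) on 17. Each is annotated as protein coding. Exons of Hopx and Rtkn2 overlap an antisense gene, and the use of strand in the counting was not stated. Hopxos, the antisense partner of Hopx, had mean levels of 0 to 0.527 TPM in the 4 groups, and Gm16212, that of Rtkn2, was listed at 0 in every group.

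Values are TPM, a level per gene length whose sum is the same for all libraries. The depth behind them is unknown, so their precision is the spread between 3 libraries. Between 11325 and 15315 genes were above 0 in a library, with the lowest numbers in dormant WT. Of 2786 genes with at least 10 TPM in each of the 9 libraries of the other groups, 64, 222 and 156 were listed at 0 in dormant WT replicates 1, 2 and 3. Dormant WT libraries correlated with each other at r = 0.666 to 0.715 across tested genes, compared with 0.866 to 0.882 within dormant KO, 0.949 to 0.952 within growing WT and 0.914 to 0.922 within growing KO. A 0 in a dormant WT library is therefore given as a listed value and not as absence.

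In dormant KO libraries 7 of the 10 genes stood above every one of the other 9 libraries: Ager, Hopx, Pdpn, Cav1, Akap5, Clic3 and Clic5. Over all 13002 genes tested this held for 8.74%. Genes were tested if they had at least 1 TPM in at least 3 libraries, which Akap5 and Clic5 met only through dormant KO, so that their place was nearly fixed. Of the other 8 genes 5 stood above. Cav1 had the highest level per length in dormant KO, with a mean of 683 ± 187 TPM (SD, n = 3). Ager followed at 490 ± 126, Hopx at 348 ± 65.3, Clic3 at 227 ± 69.4 and Pdpn at 211 ± 18.05 TPM. The ranges of Cav1 and Ager overlapped, as did those of Ager and Hopx and those of Clic3 and Pdpn. Within each library, however, Cav1 lay above Ager, and Ager above Hopx by a factor of 1.126, 2.238 and 1.082. Clic3 and Pdpn changed order between libraries and were not set apart. Every Hopx library lay above every Clic3 and Pdpn library. Emp2 (58.4 ± 12.1 TPM) lay apart from its neighbours. The ranges of Aqp5 (14.5 ± 11.47), Clic5 (12.5 ± 2.10), Akap5 (10.8 ± 2.78) and Rtkn2 (7.39 ± 2.64) each overlapped the next, while every Clic5 library lay above every Rtkn2 library. Within each library Clic5 lay above Akap5 and Akap5 above Rtkn2. In the 3 other groups the order was a different one, with Cav1, Aqp5 and Emp2 the highest of the 10.

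**Figure D1:**
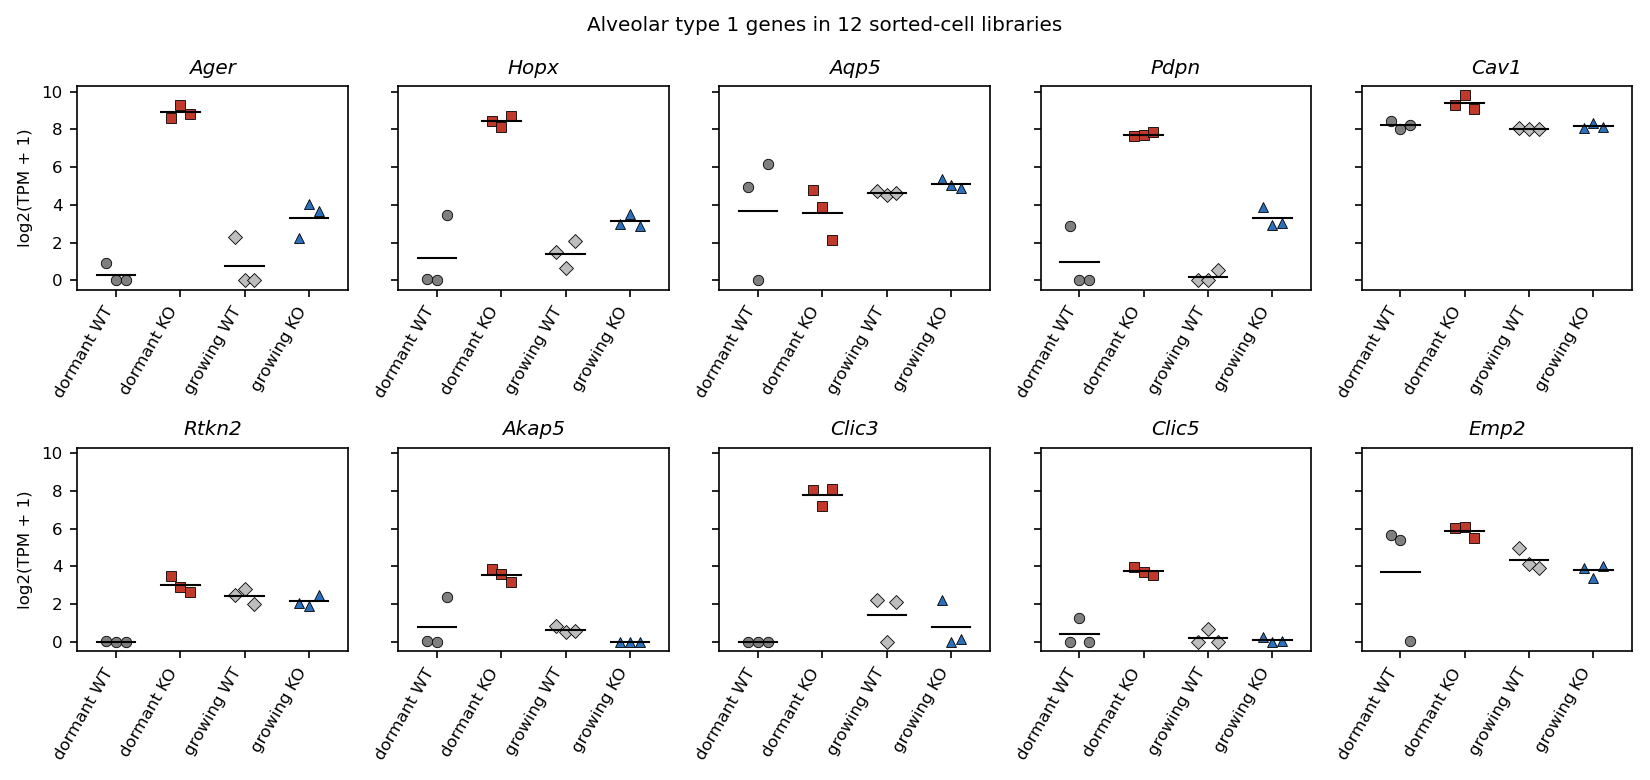
Level of each of the 10 genes as log2(TPM + 1) (vertical axis) in the 3 libraries of each group (points), with the group mean as a horizontal line. Dormant KO points lie above all others for Ager, Hopx, Pdpn, Cav1, Akap5, Clic3 and Clic5, whereas those of Aqp5 lie between 3.38 and 26.3 TPM, within the range of dormant WT.

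Among the membrane receptors and glycoproteins, Ager was listed with 0.86, 0 and 0 TPM in WT dormant libraries, against 391, 633 and 447 TPM in KO dormant libraries. Growing WT had 3.98, 0 and 0 TPM and growing KO 3.72, 15.3 and 11.53 TPM. Ager was high in the 3 dormant KO libraries and low in all 9 others, and the lowest dormant KO library lay above the highest of the others, growing KO replicate 2. Pdpn was found at 6.48, 0 and 0 TPM in WT dormant libraries, against 197, 203 and 231 TPM in KO dormant libraries. Growing WT had 0, 0 and 0.45 TPM and growing KO 13.6, 6.77 and 7.23 TPM. Pdpn had the smallest spread of the 10 genes in dormant KO (CV 8.57%), and its growing KO libraries did not overlap those of growing WT. Emp2 behaved differently. It was found at 50.1, 41.8 and 0.05 TPM in WT dormant libraries, against 63.8, 66.9 and 44.6 TPM in KO dormant libraries, and these groups overlapped. Growing WT had 30.9, 16.7 and 14.1 TPM and growing KO 14.2, 9.41 and 15.5 TPM, all below the dormant KO libraries.

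Hopx, the homeodomain protein of the set, was found at 0.06, 0 and 10.1 TPM in WT dormant libraries, against 348, 283 and 413 TPM in KO dormant libraries. Growing WT had 1.87, 0.57 and 3.22 TPM and growing KO 6.97, 10.5 and 6.41 TPM. No library outside dormant KO passed 10.5 TPM.

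Of the channel genes, Clic3 was listed at 0 in all 3 dormant WT libraries, against 261, 147 and 273 TPM in those of dormant KO. Growing WT had 3.66, 0 and 3.27 TPM and growing KO 3.58, 0 and 0.09 TPM, so that it was near 0 in each of the 9 libraries outside dormant KO. Clic5, which in other tissues links the plasma membrane to the actin cytoskeleton, was found at 0, 1.39 and 0 TPM in WT dormant libraries, against 14.8, 12.1 and 10.7 TPM in KO dormant libraries. It reached at most 0.6 TPM in the growing libraries. Aqp5 did not follow the other channels. It was found at 29.5, 0 and 69.9 TPM in dormant WT, with 26.3, 13.7 and 3.38 TPM in dormant KO, 25.3, 22.2 and 23.96 TPM in growing WT and 40.4, 31.8 and 29.0 TPM in growing KO. It was detected in 11 of the 12 libraries, its widest ranges were those of the dormant groups, and its dormant KO libraries all lay below those of growing KO, the nearest pair at 26.3 and 29.0 TPM.

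Of the scaffold and anchoring genes, Cav1 was present throughout. It was found at 345, 255 and 299 TPM in WT dormant libraries, against 614, 894 and 540 TPM in KO dormant libraries. Growing WT had 264, 262 and 260 TPM and growing KO 269, 327 and 280 TPM. The dormant KO libraries were the highest for Cav1, with replicate 2 the farthest up, and the growing WT libraries differed from each other by a CV of 0.794%. Akap5 was at 0.02, 0.01 and 4.23 TPM in dormant WT, rose to 13.4, 11 and 7.85 TPM in dormant KO, had 0.79, 0.43 and 0.49 TPM in growing WT, and was listed at 0 in all 3 growing KO libraries. Rtkn2 was found at 0.03, 0 and 0 TPM in WT dormant libraries, against 10.4, 6.52 and 5.29 TPM in KO dormant libraries. Growing WT had 4.52, 5.99 and 3.08 TPM and growing KO 3.22, 2.69 and 4.53 TPM. Rtkn2 was thus listed near 0 in the dormant WT libraries alone, which sets no upper limit on its level there, and dormant KO overlapped growing WT.

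The first comparison asked whether these genes differed between dormant cells from KO and from WT hosts. Each gene was fitted on the log2(TPM + 1) scale with limma over all 12 libraries, together with all 13002 genes that had at least 1 TPM in at least 3 libraries, and counted as called with a two-sided p of 0.05 or less after Benjamini-Hochberg adjustment over all genes tested and a difference of 1 or more in size. All 10 genes passed the filter on low values, Akap5 and Clic5 only through the dormant KO libraries. Of the 10, 8 were called higher in dormant KO, 0 lower, and Aqp5 and Emp2 were not called. Of all genes tested, 22.3% were called, 12.9% as higher and 9.39% as lower. The filter left Akap5 and Clic5 little room to be called lower, and of the 8 genes that passed it otherwise 6 were called higher. The dormant KO libraries did not overlap the dormant WT ones for the same 8 genes, all above, beside 18.6% of all genes tested. The median difference over the 10 genes was 3.17, beside 0.17 over all genes tested. For genes near 0 TPM this scale makes a change look smaller than the ratio of levels.

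Among genes with no group entirely at 0, Ager had the largest difference, 8.61 ± 0.72 (SE, adjusted p = 9.4e-06 with limma). Hopx followed at 7.24 ± 0.84 (adjusted p = 8.79e-05) and Pdpn at 6.75 ± 0.74 (adjusted p = 6.18e-05). For Clic3, whose dormant WT libraries were all at 0, no difference is stated (adjusted p = 2.77e-05). Clic5 rose by 3.33 ± 0.44 (adjusted p = 0.000221), Rtkn2 by 3.01 ± 0.47 (adjusted p = 0.000645) and Akap5 by 2.72 ± 0.59 (adjusted p = 0.00589). Cav1 rose by 1.16 ± 0.20 (adjusted p = 0.00129), and by 0.95 without dormant KO replicate 2, which is under the limit of 1. Here and in the other comparisons, sizes for genes near 0 TPM in a group depend on the constant added before the log. With a pseudocount of 5 and of 0.1 the difference was 1.28 and 6.04 for Rtkn2, 1.69 and 5.67 for Clic5 and 1.34 and 4.78 for Akap5. The Akap5 call was lost when only the dormant libraries were fitted (adjusted p = 0.113). Emp2 differed by 2.15 ± 1.17 (adjusted p = 0.218), and by 0.32 (adjusted p = 0.622) without dormant WT replicate 3, the library in which it was listed at 0.05 TPM. Aqp5 differed by -0.10 ± 1.26 (adjusted p = 0.978), and its sign changed with the scaling and with the libraries left out. Under median-ratio scaling the median over all genes tested moved from 0.17 to 0.50, the Cav1 difference to 1.68, and the 8 calls stood.

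**Figure D2:**
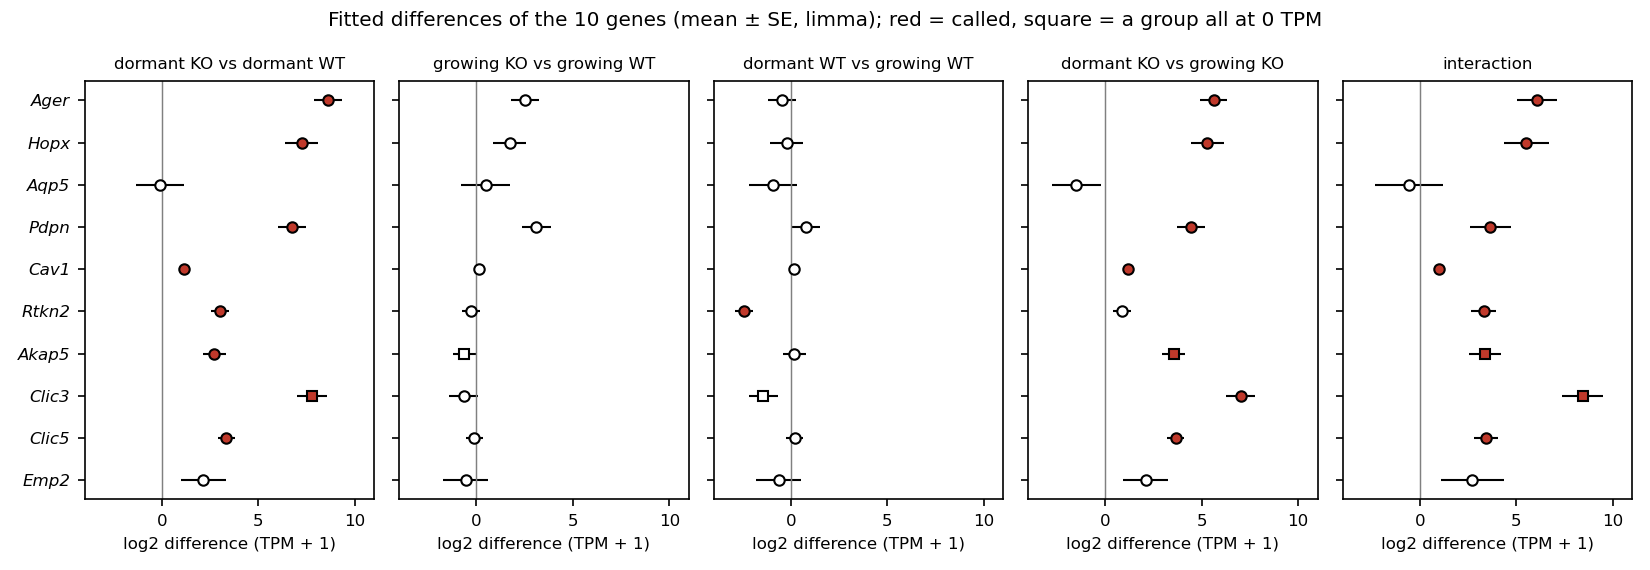
Fitted difference of each gene on the log2(TPM + 1) scale (horizontal axis, point, with its SE as a bar) in the 5 comparisons (panels). Red points were called, and squares mark comparisons in which a group was at 0 TPM in all libraries, for which the text states no size. Values of other genes near 0 TPM in a group also depend on the constant added before the log. Red points fill 8 of the 10 rows for dormant KO against dormant WT and 0 for growing KO against growing WT.

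The same hosts were compared in growing cells. Of the 10 genes 0 were called by limma, beside 0.977% of all genes tested (0.715% higher and 0.261% lower). An unadjusted p under 0.05 was found for 2 of the 10 genes, beside 979 of all 13002 genes tested. The 2 genes were Pdpn, which differed by 3.11 ± 0.74 (adjusted p = 0.0977), and Ager, which differed by 2.53 ± 0.72 (adjusted p = 0.204). Pdpn passed the threshold without dormant WT replicate 1 (adjusted p = 0.00518), in a fit of only the growing libraries (adjusted p = 0.019) and with array weights (adjusted p = 0.000541). Ager passed it with array weights (adjusted p = 0.0368). Hopx differed by 1.72 ± 0.84 (adjusted p = 0.732), although its growing KO libraries all lay above those of growing WT. That lack of overlap held for 4 of the 10 genes, Hopx, Aqp5, Pdpn and Cav1, beside 13.3% of all genes tested, and in the other direction for Akap5, beside 10.6%. The differences of Aqp5 (0.47 ± 1.26) and Cav1 (0.15 ± 0.20) were small against the fitted error, which is shared by all 4 groups. For Aqp5 that error is not the spread of the growing libraries. Its CV was 6.52% in growing WT and 17.7% in growing KO, against 105.9% in dormant WT and 79.3% in dormant KO. The median over the 10 genes was 0.01, beside 0.02 over all genes tested.

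Dormant and growing cells were then compared within each host, and so within 1 library batch. In WT hosts Rtkn2 alone was called, lower in dormant cells by -2.42 ± 0.47 (adjusted p = 0.00962), beside 7.51% of all genes tested called, 1.85% higher and 5.67% lower. The call rests on the 3 dormant WT values of 0 to 0.03 TPM, and it was lost with a pseudocount of 5 (-0.92), under quantile normalization (adjusted p = 0.0776) and with array weights (adjusted p = 0.108). The other 9 genes were not called and their dormant and growing WT libraries overlapped. Among all genes tested, the dormant WT libraries were all below those of growing WT for 19.4% and all above for 7.22%. In KO hosts 7 of the 10 genes were called higher in dormant cells and 0 lower, beside 17.8% called among all genes tested, 8.31% higher and 9.48% lower. Without Akap5 and Clic5, which passed the filter only through dormant KO, this was 5 of 8. The dormant KO libraries all lay above those of growing KO for 9 genes, beside 16.4% of all genes tested, and all below for Aqp5, beside 28.3%. The median over the 10 genes was 3.58, beside -0.32 over all genes tested. Clic3 differed by 7.01 ± 0.76 (adjusted p = 8.46e-05), Ager by 5.61 ± 0.72 (adjusted p = 0.00027), Hopx by 5.29 ± 0.84 (adjusted p = 0.000971) and Pdpn by 4.43 ± 0.74 (adjusted p = 0.00139). Clic5 differed by 3.64 ± 0.44 (adjusted p = 0.000172) and Cav1 by 1.19 ± 0.20 (adjusted p = 0.00144), while Akap5, at 0 in all growing KO libraries, passed with an adjusted p of 0.0015. Cav1 fell under the limit of 1 without dormant KO replicate 2 (0.98), and Pdpn missed the threshold with a pseudocount of 0.1 (adjusted p = 0.0566). Rtkn2 (0.88 ± 0.47, adjusted p = 0.23), Emp2 (2.09 ± 1.17, adjusted p = 0.254) and Aqp5 (-1.51 ± 1.26, adjusted p = 0.461) were not called. Emp2 passed without dormant WT replicate 3 (adjusted p = 0.00307), a library that enters this comparison only through the shared estimate of the spread. In a fit of only the KO libraries its adjusted p was 0.00455. The 4 comparisons share groups of libraries, so their calls are not independent of each other.

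The interaction asked whether the dormant minus growing difference in KO hosts was larger than that in WT hosts, and it was positive and called for 8 of the 10 genes, beside 10.1% of all genes tested called, 6.18% as higher and 3.91% as lower. Without Akap5 and Clic5, whose sign the filter nearly fixed, it was called for 6 of 8. Clic3 had the lowest adjusted p, 0.000734. The interaction was 6.08 ± 1.02 for Ager (adjusted p = 0.00364), 3.45 ± 0.62 for Clic5 (adjusted p = 0.00502), 3.30 ± 0.66 for Rtkn2 (adjusted p = 0.00833) and 5.52 ± 1.18 for Hopx (adjusted p = 0.0118). It was 3.65 ± 1.05 for Pdpn (adjusted p = 0.0477) and 1.01 ± 0.28 for Cav1 (adjusted p = 0.0425), and the adjusted p of Akap5 was 0.026. These last 3 were near the threshold and lost their calls in many other fits. For Pdpn 14 of 20 other fits gave no call, for Cav1 12 and for Akap5 9, and leaving out any growing library was among them. Ager (adjusted p = 0.0765) and Hopx (adjusted p = 0.0576) were each not called at a pseudocount of 0.1, nor was Clic5 under quantile normalization (adjusted p = 0.0696), whereas Clic3 and Rtkn2 kept it in all 20.

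The growing KO level was set beside the dormant KO level for each of the 10 genes. The growing KO mean was 2.08% of the dormant KO mean for Ager, 2.29% for Hopx, 4.36% for Pdpn, 0.538% for Clic3 and 0.638% for Clic5, and Akap5 was listed at 0 in growing KO. It was 42.8% for Cav1, 47.1% for Rtkn2 and 22.3% for Emp2, and for Aqp5 the growing KO mean was the higher one. For comparison, it was 1.08% for Sftpc, the surfactant protein C gene of alveolar type 2 cells, and 3.36% for Pecam1, an endothelial adhesion molecule. For Scgb1a1, the secretoglobin of club cells, it was 50.05%.

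The patterns of the 10 genes over the 12 libraries were compared with that of Ager by Pearson's r, as a description, since all points share the libraries of 4 groups. Pdpn (r = 0.942), Hopx (0.930), Cav1 (0.901), Clic3 (0.889) and Clic5 (0.857) followed Ager most closely. Akap5 (0.755), Rtkn2 (0.649) and Emp2 (0.514) followed it less, and Aqp5 did not (-0.122). Among all other genes tested, the 5 most like Ager were Chil1 (0.983), Igfbp7 (0.982), Ripply3 (0.981), Prss23 (0.979) and Fabp4 (0.979). Chil1 encodes a secreted chitinase-like protein and Fabp4 a fatty acid binding protein of capillary endothelium and adipocytes. Both were listed at 0 in dormant WT, and their dormant KO means were 332 and 222 TPM, against 7.93 and 5.57 TPM in growing KO. Those most like the mean of the 10 genes were Sbsn (0.985), Ripply3 (0.983), Prr15 (0.983), Slurp1 (0.981) and Sfrp1 (0.981). Slurp1, a secreted protein of the Ly6 family, had a mean of 736 TPM in dormant KO, 5.94 in growing KO, 0.03 in growing WT and 0 in dormant WT.

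A wider list of 23 alveolar type 1 markers, none of them among the 10, is given as a description. All 23 were in the table and 18 passed the filter, 11 of them only through the dormant KO libraries, where they could hardly have been called lower. Of the 18, 12 were called higher in the KO than in the WT dormant group, beside 12.9% of all genes tested. Of these 12, 10 had passed only through dormant KO, and their count is no support for a direction. Of the 7 genes that passed otherwise, 2 were called higher, Krt19 and Timp3 (3.88 ± 0.81 for Timp3, an inhibitor of metalloproteinases, adjusted p = 0.00448), and 0 lower. Krt19, a keratin that mesothelium also carries, had the largest difference among those with no group entirely at 0, found at 0.59, 0 and 0 TPM in WT dormant libraries, against 267, 418 and 252 TPM in KO dormant libraries (8.03 ± 0.75, adjusted p = 2.03e-05). Cyp2b10, a cytochrome P450, was listed at 0 in dormant WT, against 72.6, 47.4 and 23.2 TPM in KO dormant libraries (adjusted p = 1.45e-05). Krt7, a keratin of simple epithelia, was also listed at 0 in dormant WT, against 34.2, 61.5 and 29.6 TPM in KO dormant libraries (adjusted p = 2.28e-05). The tight junction gene Cldn18 followed at 4.28 ± 0.47 (adjusted p = 6.52e-05), and the basement membrane collagens Col4a3 (2.42 ± 0.43, adjusted p = 0.00165) and Col4a4 (2.73 ± 0.31, adjusted p = 7.27e-05) rose as well, Col4a3 not under quantile normalization (adjusted p = 0.132). Vegfa (0.78 ± 0.65, adjusted p = 0.435), Gprc5a (1.55 ± 1.01, adjusted p = 0.31), Lmo7 (0.31 ± 0.88, adjusted p = 0.851), Scnn1g (1.20 ± 0.76, adjusted p = 0.299), Agrn (3.21 ± 1.10, adjusted p = 0.0549) and Pmp22 (1.10 ± 0.46, adjusted p = 0.11) were not called. Spock2, Sema3e, Scnn1b, Gramd2 and Lamb3 were too low to be tested, none of them above 1.62 TPM in a dormant KO library. In KO hosts 11 of the 18 were called higher in dormant than in growing cells, beside 8.31% of all genes tested, and 8 of these 11 had passed only through dormant KO. In growing cells 0 of the 18 were called between hosts by limma, beside 0.977% of all genes tested. An unadjusted p under 0.05 was found there for 3 of the 18, beside 979 of all 13002 genes tested.

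**Figure D3:**
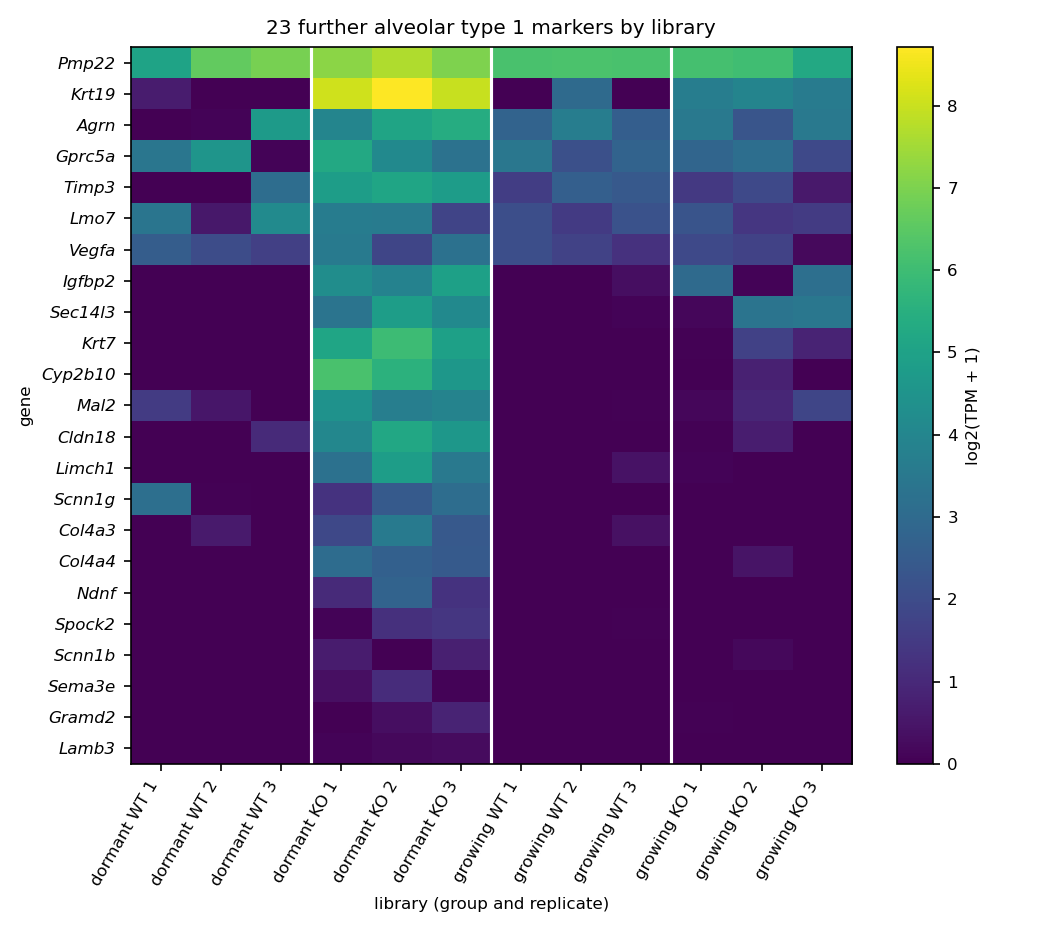
Level of 23 further alveolar type 1 markers (rows, ordered by their mean) as log2(TPM + 1) (colour) in the 12 libraries (columns, white lines between groups). Krt19 reaches 252 to 418 TPM in dormant KO and at most 14.2 TPM elsewhere, while rows at the bottom such as Lamb3 and Gramd2 are near 0 in all libraries.

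The families of the channel and membrane genes did not move as units, and their counts can be read beside the 12.9% of all genes tested called higher and 9.39% called lower. Of 5 chloride intracellular channel genes, Clic3 and Clic5 were called higher in the KO than in the WT dormant group and Clic1, a widely expressed member, lower. Clic1 was found at 528, 813 and 549 TPM in WT dormant libraries, against 259, 256 and 261 TPM in KO dormant libraries (-1.25 ± 0.16, adjusted p = 0.000169), which under median-ratio scaling became -0.74, under the limit of 1. Clic4 was found at 43.1, 0.5 and 6.21 TPM in WT dormant libraries, against 29.9, 32.6 and 32.5 TPM in KO dormant libraries (2.06 ± 0.94, adjusted p = 0.141). Among 9 aquaporins 3 could be tested, and Aqp1, the water channel of capillary endothelium and red cells, was the only one called, found at 0.66, 2.53 and 0 TPM in WT dormant libraries, against 50.8, 67.6 and 41.0 TPM in KO dormant libraries (4.88 ± 0.81, adjusted p = 0.000997). Of 8 genes of caveolae 7 were tested, and Cav1 and Cavin2, which is abundant in endothelium, were called higher. Cavin2 differed by 2.56 ± 0.68 (adjusted p = 0.0167). Cavin1, needed for caveolae together with Cav1, differed by 1.63 ± 0.59 (adjusted p = 0.0688) and passed under median-ratio scaling (adjusted p = 0.0137) and quantile normalization (adjusted p = 0.0151). Cav2, the usual partner of Cav1, differed by -0.96 ± 0.35 (adjusted p = 0.0683). Of the 4 genes of the PMP22 and EMP family, Emp1 was called lower, found at 200, 145 and 244 TPM in WT dormant libraries, against 31.5, 32.6 and 30.6 TPM in KO dormant libraries (-2.57 ± 0.27, adjusted p = 5.18e-05).

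The genes of 7 RAGE ligands, the proteins that bind the product of Ager, were all tested. S100a8, S100a9 and App were called higher in the KO than in the WT dormant group, and S100a4 and S100b lower, beside 12.9% and 9.39% of all genes tested. S100a8, abundant in neutrophils, was found at 428, 559 and 304 TPM in WT dormant libraries, against 3207, 2912 and 3361 TPM in KO dormant libraries (2.91 ± 0.25, adjusted p = 1.06e-05), and S100a9, its partner, differed by 3.26 with an SE of 1 (adjusted p = 0.0335). S100b fell from 25.9, 18.3 and 31.1 TPM to 0.76, 0.07 and 0 TPM (-4.37 ± 0.49, adjusted p = 7.65e-05). S100a4 was found at 7538, 3687 and 5007 TPM in WT dormant libraries, against 2022, 1304 and 1800 TPM in KO dormant libraries (-1.62 ± 0.22, adjusted p = 0.000272).

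Of 11 regulators tied to alveolar type 1 cells, 10 were tested, with 4 called higher and 3 lower, beside 12.9% and 9.39% of all genes tested. Of the 4, Nkx2-1, Gata6 and Ccn2 passed the filter only through dormant KO. Nkx2-1, which sets lung epithelial identity, was listed at 0 in dormant WT, against 1.82, 5.05 and 10.8 TPM in KO dormant libraries (adjusted p = 0.003). Gata6, a zinc finger factor of lung epithelium, was likewise at 0 in dormant WT, against 6.70, 11.6 and 4.66 TPM in KO dormant libraries (adjusted p = 0.000173). Ccn2, a target of the YAP and TAZ co-activators, went from 0 in all dormant WT libraries to 9.74, 51.2 and 30.6 TPM (adjusted p = 0.000223), whereas Ccn1, another such target, fell from 914, 879 and 1300 TPM to 102, 171 and 129 TPM (-2.94 ± 0.20, adjusted p = 2.33e-06). Wwtr1, which encodes TAZ, also fell (-2.05 ± 0.38, adjusted p = 0.002), as did Klf5 (-2.18 ± 0.54, adjusted p = 0.0115). Yap1 rose by 1.62 ± 0.43 (adjusted p = 0.0177), but not under quantile normalization (0.09, adjusted p = 0.907).

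Markers of other lung cells moved with the 10 genes. The 10 genes summed to 298 to 431 TPM in the dormant WT libraries, 1940 to 2270 in dormant KO, 309 to 335 in growing WT and 354 to 403 in growing KO, with Cav1 the largest part of the sum outside dormant KO. Of 12 alveolar type 2 genes 9 were called higher in the KO than in the WT dormant group, beside 12.9% of all genes tested, and their sum was 78.3 to 149 TPM in dormant WT, 40300 to 42600 in dormant KO, 58.6 to 103 in growing WT and 466 to 477 in growing KO. Abca3, the lipid transporter of lamellar bodies, was one of the 3 not called, at 1.62, 0.7 and 2.69 TPM in dormant KO, and Lamp3 was not called under quantile normalization (adjusted p = 0.0708). Sftpc was above Ager by a factor of 57.8 to 100 in the dormant KO libraries. Of 11 blood endothelial genes 9 were called higher, with sums of 14.6 to 121 TPM in dormant WT and 1057 to 1257 in dormant KO, 9.88 to 12.5 in growing WT and 48.0 to 77.0 in growing KO. All 7 mesothelial genes were called higher, with sums of 0.59 to 55.6 TPM in dormant WT, 812 to 1265 in dormant KO, 21.1 to 33.4 in growing WT and 63.0 to 101 in growing KO. Mesothelium also carries podoplanin.

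For club and ciliated cells 4 of 8 tested genes were called higher, again beside 12.9% of all genes tested, and the sum was 8.47 to 320 TPM in dormant WT, 1966 to 2489 in dormant KO, 297 to 327 in growing WT and 1131 to 1210 in growing KO. Scgb1a1 was most of that sum in dormant KO (2176, 1752 and 1694 TPM). Scgb3a1, Bpifa1, Tppp3 and Cfap126 were not called. Foxj1, listed at 0 in every library, and Ccdc39 were not tested. For fibroblasts and pericytes 5 of 8 tested genes were called higher, with sums of 55.2 to 211 TPM in dormant WT and 1848 to 2076 in dormant KO, 26.3 to 43.3 in growing WT and 301 to 366 in growing KO. Dcn (1098, 1324 and 1094 TPM) and Inmt (559, 501 and 623 TPM) were most of that sum in dormant KO. Col1a1 (0.76), Pdgfra (-1.41) and Pdgfrb (-0.78) were not called, and Cspg4 was not tested. The 5 erythroid genes summed to 8988 to 13030 TPM in dormant WT, 50830 to 56260 in dormant KO, 6196 to 6851 in growing WT and 6881 to 7791 in growing KO, and 4 of the 5 were called higher. The macrophage genes did not follow this order, since their sum was 697 to 959 TPM in dormant WT and 656 to 863 in dormant KO, against 13.0 to 24.5 in growing WT and 83.6 to 111 in growing KO, and 1 of 8 tested was called higher between the dormant groups, about the share among all genes tested. Lymphatic endothelium also carries podoplanin. Its defining genes Prox1 and Mmrn1 did not pass 0.04 TPM in any library, while Lyve1 was called higher in the KO than in the WT dormant group (3.65 ± 0.82, adjusted p = 0.00693), as was Ccl21a, listed at 0 in dormant WT (adjusted p = 6e-05). The 6 lymphatic genes summed to 42.2 to 101 TPM in dormant KO, most of it Ccl21a and Lyve1, to 38.6 to 66.0 in growing KO and to at most 3.82 TPM in both WT groups. The 14 widely expressed genes summed to 25720 to 28340 TPM in dormant WT, 20830 to 21380 in dormant KO, 27820 to 29610 in growing WT and 29170 to 31890 in growing KO. Of these 14 genes 6 were called lower in the KO than in the WT dormant group, beside 9.39% of all genes tested, and 0 higher. Among the genes called higher, 4 of the 9 alveolar type 2 genes, 4 of the 9 of blood endothelium, 2 of the 7 of mesothelium, 1 of the 4 of club and ciliated cells, 1 of the 5 of fibroblasts and pericytes and 1 of the 2 of lymphatic endothelium, Lyve1, had passed the filter only through dormant KO. The part of these other cell types in the levels of the 10 genes was not tested. In such sorted aliquots, fewer cells of a type and less RNA per cell cannot be told apart.

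The label of the libraries, mammary tumour cell, can be set beside epithelial genes that D2A1 cells may share with alveolar epithelium. Of 6 such genes 5 were tested, with 2 called higher in the KO than in the WT dormant group and 1 lower, beside 12.9% and 9.39% of all genes tested. Krt8 and Krt18, keratins of simple epithelia, were present in all groups. Krt8 was found at 381, 188 and 183 TPM in WT dormant libraries, against 52.1, 106 and 79.9 TPM in KO dormant libraries (-1.62 ± 0.35, adjusted p = 0.00541), and Krt18 differed by 0.09 ± 0.25 (adjusted p = 0.838). Epcam, an adhesion molecule of epithelia that alveolar cells carry, was found at 0.09, 0 and 0 TPM in WT dormant libraries, against 3.42, 0.27 and 5.34 TPM in KO dormant libraries (1.68 ± 0.53, adjusted p = 0.0401), and under quantile normalization it was not called (adjusted p = 0.173). Cldn7, a tight junction gene, was listed at 0 in the 9 libraries outside dormant KO, in which it had 15.1, 20.7 and 6.72 TPM. Cdh1, which encodes E-cadherin, differed by 1.17 ± 0.48 (adjusted p = 0.106), and Cldn4 was listed at 0 in all 12 libraries. Epcam, Cldn7 and Cdh1 passed the filter only through dormant KO. In the growing libraries of both hosts Krt8 lay at 153 to 306 TPM and Krt18 at 243 to 519 TPM. Epcam reached at most 1.12 TPM there and Cdh1 at most 1.88 TPM.

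**Figure D4:**
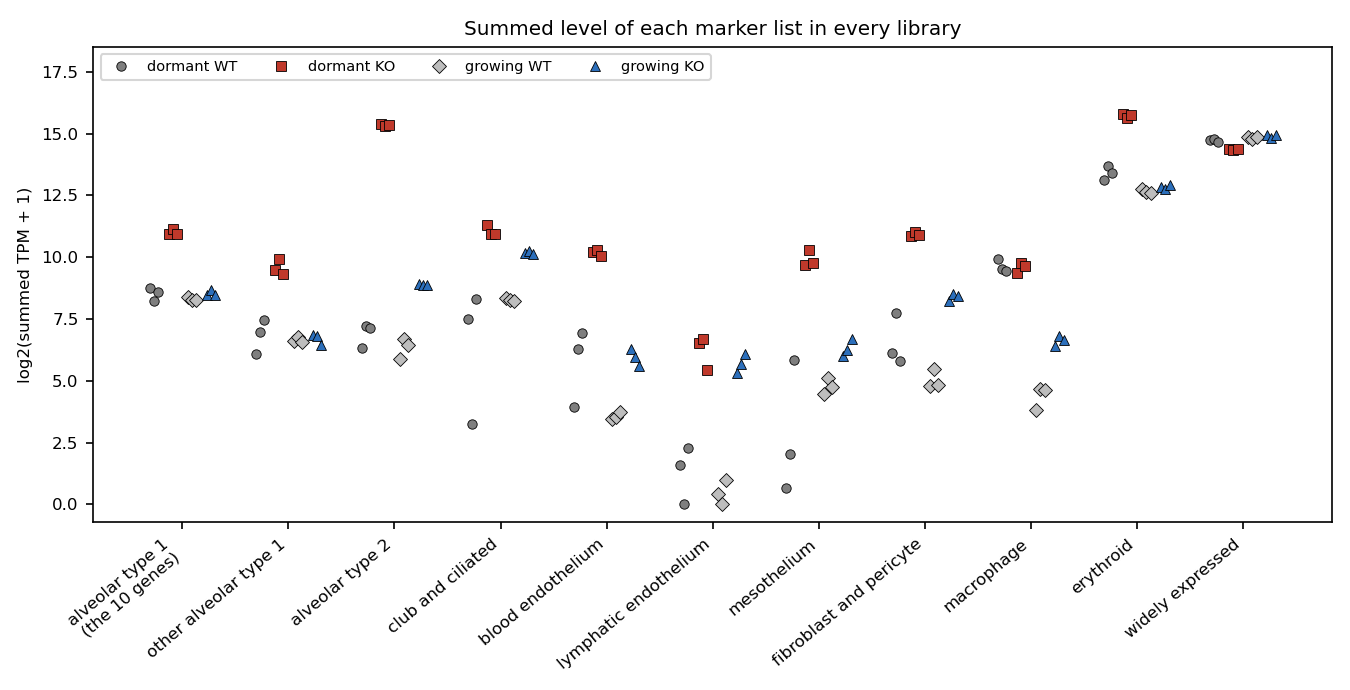
Summed TPM of the 10 genes and of 10 marker lists as log2(summed TPM + 1) (vertical axis) in each library (points, by group). Dormant KO libraries are the highest for every list drawn except the lymphatic list, where they overlap growing KO, the macrophage list, where they overlap dormant WT, and the widely expressed list, where they are the lowest.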

How the data were processed

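RNA was measured in 12 libraries of sorted cells, 3 in each of 4 groups taken from the labels. Aliquots of 50 sorted cells went into a small-input protocol by the authors' methods, while a TruSeq mRNA kit stands in the labels. The submitters' processing notes list cutadapt 1.18, STAR 2.5.2b and RSEM 1.3.3, and the methods give other versions of cutadapt and RSEM. The deposited values are TPM estimated by the authors with RSEM, which shares reads between similar sequences, and TPM keeps no depth, so no counting interval was computed. The table holds 30 more per-sample columns, left out here because no label matched them.

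TPM was transformed to log2(TPM + 1). Genes with at least 1 TPM in at least 3 libraries were tested, 13002 of the 25916 above 0. TPM is not a count, so the authors' DESeq2 test was not applied. Groups were compared with limma 3.58.1 in R 4.3.3 (1 mean per group, eBayes with a trend, 8 residual degrees of freedom), two-sided, with Benjamini-Hochberg adjustment over all genes tested, and a gene was called at an adjusted p of at most 0.05 and a difference of at least 1. The study describes the 3 libraries of a group as biological triplicates from 3 mice. Whether dormant and growing libraries came from the same mice is not given in the sources used here. The procedure was tested on simulated data with normal noise of the same spread in every group. Values listed at 0 and the wider spread of dormant WT were not simulated, so that test does not cover them.

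The 10 genes and the other lists were chosen with earlier results of these data known. All 10 were named, as were genes of each other list with the largest called differences, further list genes chosen after their values were seen, and the 5 genes most like Ager and most like the mean of the 10. List genes were matched by symbol, 5 of them under an older symbol through their gene ID. Coordinates are from GENCODE M21 (GRCm38) and start-site windows from RefSeq (GRCm38.p6), in which windows on chromosome 18 were left out. Windows of 2 of the 10 genes were not used here, and 1 gene was left out of the wider list. Fits were repeated leaving out each library, with a replicate block, with array weights, on the compared groups alone, after quantile normalization or median-ratio scaling (over 5729 genes), with other filters (none, or 5 TPM) and with other pseudocounts (0.1 and 5).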

Additional observations from a re-analysis of the deposited data

Results flagged for a closer look

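For 8 of the 10 genes the dormant minus growing difference in KO hosts differed from the same difference in WT hosts by the interaction test (limma, adjusted over all genes tested), beside 10.1% of all genes tested, and these results are given again for a closer look. The count was 5 without dormant KO replicate 1 and without any 1 growing library, and Pdpn and Cav1 were not called in 14 and 12 of 20 other fits. The interaction was 6.08 for Ager, 5.52 for Hopx, 3.65 for Pdpn, 1.01 for Cav1, 3.30 for Rtkn2 and 3.45 for Clic5 on the log2(TPM + 1) scale. For Akap5 (adjusted p = 0.026) and Clic3 (adjusted p = 0.000734) a group was at 0 in all libraries and no size is given. The filter on low values nearly fixed the sign for Akap5 and Clic5, and without them 6 of 8 genes were called, all positive. For Rtkn2 the WT part was itself called (-2.42), though not with a pseudocount of 5, quantile normalization or array weights. Its interaction thus rests in part on dormant WT values listed at 0.03, 0 and 0 TPM, which set no upper limit. The dormant KO level of Rtkn2 was not called above growing KO. Host and library batch are the same split in this test and cannot be told apart. In groups of 3 no library was tested as an outlier.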

How the results depend on the processing

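The 32 differences followed were refitted under up to 21 alternatives each. The count of 8 genes called between dormant KO and dormant WT stayed within 7 to 8 when libraries were left out, was 7 in a fit of the dormant libraries alone and 8 under both other scalings. Without single libraries the Aqp5 difference between the dormant groups ranged from -1.94 to 1.13, and it changed sign with a pseudocount of 0.1 (0.87), median-ratio scaling (0.35) and without dormant WT replicate 1 (0.52), dormant WT replicate 3 (1.13) or dormant KO replicate 3 (0.63). The count for growing KO against growing WT, 0, became 1 in a fit of only the groups compared and 2 with array weights, and ranged from 0 to 1 without single libraries. The count for dormant against growing WT, 1, became 0 with a pseudocount of 5, quantile normalization or array weights (for Rtkn2, adjusted p = 0.0481 with a difference of -0.92, 0.0776 and 0.108). The interaction count, 8, became 5 with a pseudocount of 0.1 and 5 with no filter, and ranged from 5 to 8 without single libraries. It fell to 5 without dormant KO replicate 1, any growing WT library or any growing KO library, where Pdpn, Cav1 and Akap5 were lost. Ager (adjusted p = 0.0765) and Hopx (0.0576) lost the interaction call with a pseudocount of 0.1, and Clic5 (0.0696) under quantile normalization. The cause was not tested.

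Replicate numbers are shared between groups in the labels. Deviations from the group means had r between -0.0136 and 0.0206 for same-numbered libraries. For libraries of different numbers r was between -0.0286 and 0.0332. With 3 libraries in a group this cannot show whether same-numbered libraries came from the same mice. With the replicate block the counts were 8, 0, 1 and 7 in the 4 comparisons of groups and 6 for the interaction, where Pdpn (adjusted p = 0.0612) and Cav1 (0.0716) were not called. Depth is unknown from TPM, so values listed at 0, most frequent in dormant WT, set no upper limit.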
